A study of Mus musculus with 54 samples.

Results

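Endstage prostate tumours of castrated DKO_EE mice were compared with endstage tumours of intact DKO_EE mice. The comparison takes 17 of the 54 libraries of the series: 5 libraries from 5 castrated animals, and 12 libraries from 8 intact animals. Both groups are DKO mice that the submitters describe as carrying Ezh2 deletions, so whatever engineered alleles the name DKO_EE stands for are shared by the castrated and the intact animals. The labels spell out neither DKO nor EE, and give no strain, Cre driver or deleted exon, so they do not say which cells of the prostate lost Ezh2. Castration was done at 12 weeks of age. Castrated animals were collected at 35, 40, 59, 46 and 39 weeks, and intact animals at 28 to 42 weeks. All samples are labelled as prostate tumour tissue, and total RNA was depleted of ribosomal RNA before sequencing. In 4 of the intact animals 2 tissue pieces were sequenced, and their log2 values were averaged, so that the animal is the replicate throughout. The titles of all intact DKO_EE endstage libraries name a piece (PT, AP, DP, LP or DP-LP), and those of the castrated libraries name none. A difference in the tissue piece therefore cannot be told apart from castration. Values are also given beside 4 castrated (39 to 99 weeks) and 3 intact (35 to 46 weeks) endstage animals of DKO, 5 castrated (34 to 37 weeks) and 3 intact (39 to 52 weeks) endstage animals of DKO_EP, a second Ezh2-deletion genotype, and 4 intact DKO_EE animals of 12 weeks. The fit across all groups also holds 12-week intact DKO and DKO_EP animals and 8 castrated TKO animals of 15 to 19 weeks, 4 given vehicle and 4 given CPI1688, and these TKO libraries count among the castrated ones where genes are set aside below.

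Androgens made by the testis drive the prostate epithelium and turn on genes such as Fkbp5 and Tmprss2. Castration removes that supply, and prostate tumours that grow without it can lose the response to androgen and take on a neuroendocrine state, with transcription factors such as Insm1 and secretory proteins such as chromogranin A. Ezh2 is the enzyme of Polycomb repressive complex 2 and adds methyl groups to histone H3. Polycomb repressive complex 1 binds that mark or is recruited without it, and both complexes keep developmental transcription factor genes silent in tissues where they are not used. Many of those genes have promoters rich in CG dinucleotides.

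Values are log2 of a normalized read count plus 1, as deposited. A gene is said to have risen or fallen where the Benjamini-Hochberg adjusted p of limma, over 16772 genes and with the 48 animals of 11 groups in 1 fit, was under 0.05. Recovered reads per library came to 5261109 to 7264859 in castrated animals and 3687048 to 9350512 in intact animals. Over all 54 libraries, 396 genes had no overlap between the 22 castrated and the 32 intact libraries, whatever the genotype: 139 were above and 257 below in the castrated ones. These genes were set aside, since a difference that every castrated library shares against every intact one cannot be told apart from a difference in how the 2 kinds of library were handled. For the genes kept too, castration and the kind of library coincide within DKO_EE, so these cannot be told apart. Lars2, a mitochondrial leucyl-tRNA synthetase gene, took 0.0034 to 0.0044% of the reads in castrated libraries and 0.0085 to 35.3% in intact libraries, with 5 of the 12 intact ones above 10%. All 5 castrated animals and 3 of the 8 intact animals have identifiers that begin with DKOE, while the other 5 intact animals have identifiers that begin with ET. Castrated animals were 43.8 ± 9.4 weeks old (SD, n = 5) and intact animals 33.5 ± 4.2 weeks old (SD, n = 8), a difference of 10.3 weeks (exact two-sided permutation test, p = 0.0218). Without castrated animal 3, the 59-week one, the difference was 6.5 weeks (exact permutation p = 0.0566), and without castrated animal 4 it was 9.75 weeks (exact permutation p = 0.0566).

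Ezh2 (chromosome 6, 47530139 to 47595341, GRCm38) was present in every animal. Its values were 8.46, 9.19, 8.02, 8.57 and 8.07 in castrated animals, and the lowest, median and highest were 7.41, 8.31 and 8.76 in intact animals. The groups overlapped, and the log2 fold change, castrated minus intact, was 0.19 (SE 0.24, adjusted p = 0.709). In the 4 intact DKO_EE animals collected at 12 weeks it was 7.60 ± 0.20 (SD). In DKO, which carries no Ezh2 deletion by the series description, it was 9.36 ± 0.62 in castrated animals and 9.61 ± 0.23 in intact animals at endstage (SD, n = 4 and n = 3). A value per gene takes in reads outside any deleted exon, so it does not say how much functional transcript was left. Ezh1, the other catalytic subunit, was 8.95 ± 0.20 in castrated and 8.88 ± 0.24 in intact animals (SD, n = 5 and n = 8, adjusted p = 0.819).

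Among the 16376 genes kept, 1253 rose in castrated animals, which is 7.65% of them, and 1117 fell, which is 6.82%. Of these, 482 rose and 457 fell by more than 1 on the log2 scale. The 5 castrated animals all lay above the 8 intact ones in 652 genes (3.98% of those kept) and all below in 499 genes (3.05%). Over all 16772 genes the counts were 1392 higher (8.3%) and 1374 lower (8.19%), with a median log2 fold change of -0.025. Within-group spread was smaller among castrated animals, with a median SD over genes of 0.343, than among intact animals, with 0.46. With the 3 intact animals whose identifiers carry the letters DKOE as the whole intact group, 647 kept genes rose and 508 fell. In these whole-tissue samples, fewer cells of a type and less RNA per cell cannot be told apart.

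Many of the same genes moved in the other 2 genotypes of the series, whose castrated and intact animals share no sample with DKO_EE but were split between the same 2 kinds of library. Of the 1253 risen genes, 581 also rose in castrated DKO animals (46.4% of the DKO_EE genes and 56% of the DKO ones, against 7.01% of all genes risen in DKO). In DKO_EP, 532 of them rose (42.5% of the DKO_EE genes and 78.1% of the DKO_EP ones, against 4.89% of all genes risen in DKO_EP). Of the 1117 fallen genes, 503 also fell in DKO (45% and 55.5%, against 6.93% of all genes) and 425 in DKO_EP (38% and 73.4%, against 4.98%). In neither of these genotypes did 532 of the risen and 513 of the fallen genes pass the test, which does not show that they differ between genotypes. The difference itself passed for 2 genes against DKO (0.0119% of all genes) and 1 gene against DKO_EP (0.00596%), described at the end.

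Of 31 measured androgen response genes, none rose and 1 fell, Aldh1a3, against 8.3% of all genes higher and 8.19% lower. Aldh1a3, which makes retinoic acid and is induced by androgen in prostate cells, had 3.01, 5.67, 1.63, 2.81 and 5.47 in castrated animals, and the lowest, median and highest were 2.96, 6.60 and 8.4 in intact animals. The groups overlapped, and the log2 fold change was -2.59 (SE 0.86, adjusted p = 0.0315). The call was lost in 13 alternative settings, among them the fit on the 13 DKO_EE endstage animals alone (adjusted p = 0.0897) and limma-voom on recovered reads (adjusted p = 0.331). The list's median log2 fold change was -0.18, and its summed normalized counts per animal were 9570 to 13850 in castrated and 10510 to 15430 in intact animals.

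Tmprss2, a membrane protease gene under androgen control, had 4.40, 7.43, 5.82, 5.17 and 4.85 in castrated animals, against 5.61, 6.99 and 9.19 in intact animals and 12.11 ± 0.49 at 12 weeks (SD, n = 4). Its endstage groups overlapped (log2 fold change -1.89, SE 0.89, adjusted p = 0.159), and with weights per animal the adjusted p was 0.0476. Fkbp5, a chaperone gene that both androgens and glucocorticoids induce, was 10.16 ± 0.54 in castrated and 9.98 ± 0.50 in intact animals (SD, adjusted p = 0.811). Nr3c1, the glucocorticoid receptor gene, was 10.30 ± 0.09 in castrated and 10.28 ± 0.35 in intact animals (SD, adjusted p = 0.955). Hoxb13, a homeobox factor of the prostate, was at 0 in 4 of the 5 castrated animals and 0.00, 1.41 and 5.08 as the lowest, median and highest in intact animals (adjusted p = 0.301).

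Probasin (Pbsn), a classical androgen-dependent secretory gene of the rodent prostate, had no read in any of the 13 animals at the depths given, so no difference was detectable. Its promoter is shown because androgen response elements are built from half-sites that resemble AGAACA, or TGTTCT on the other strand. Exact matches to these letters are in capitals. The sequence is from RefSeq on GRCm38.p6, chrX:77853451-77853750, minus strand, 250 bases before to 50 after the start.
Pbsn: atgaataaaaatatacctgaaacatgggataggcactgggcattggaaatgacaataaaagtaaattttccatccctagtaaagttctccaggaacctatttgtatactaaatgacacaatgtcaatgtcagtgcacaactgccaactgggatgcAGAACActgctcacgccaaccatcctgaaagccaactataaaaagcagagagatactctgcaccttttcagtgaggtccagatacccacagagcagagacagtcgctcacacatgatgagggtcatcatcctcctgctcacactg
The window held 1 exact match to the half-site, and variants of it were not searched for. Of all 32851 promoters of this length in the table, 19% held at least 1. Of the 16428 promoters of genes in the deposited table, 13.8% did. Of 39 promoters of 21 androgen response genes, 7 did, or 17.9%, and they belonged to Abcc4, Azgp1, Pbsn, Sgk1 and Tsc22d3. A match of 6 letters is a description of the window and no evidence of binding.

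The luminal keratins were abundant and were not called with all groups and animals in the fit. Krt8 was 12.78 ± 0.35 in castrated and 13.33 ± 0.43 in intact animals (SD, adjusted p = 0.25), and Krt18 was 11.27 ± 0.59 and 11.79 ± 0.38 in castrated and intact animals (SD, adjusted p = 0.173). Krt8 passed with weights per animal (adjusted p = 0.0274) and Krt18 without castrated animal 2 (adjusted p = 0.0482), both as falls. Of 24 luminal genes, 1 rose and none fell, against 8.3% of all genes higher and 8.19% lower, with a list median of -0.07. The gene that rose was Foxa1, the pioneer factor that opens chromatin for other factors of the prostate, and it is also on the developmental list below. Foxa1 (chromosome 12, 57540628 to 57546916) had 11, 10.52, 10.63, 10.36 and 10.78 in castrated animals, and 8.96, 9.33 and 9.77 as the lowest, median and highest in intact animals. Every castrated animal was above every intact one, and the log2 fold change was 1.32 (SE 0.22, adjusted p = 1.35e-05). The call held in all 25 alternative settings run for it, with adjusted p at most 0.00593. Castrated minus intact, Foxa1 differed by 1.35 in DKO (adjusted p = 0.00101) and 0.65 in DKO_EP (adjusted p = 0.176).

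Of 22 basal epithelial genes, none rose and 2 fell, a share near the 8.19% of all genes that fell. The median log2 fold change was -0.75, and 20 of the 22 were negative. With only the 3 DKOE-lettered intact animals none was called, and the log2 fold changes of Krt5, Krt14 and Trp63 were 0.36, 1.45 and 0.18. Itga6, the laminin receptor subunit of hemidesmosomes, had 8.63, 10.59, 10.02, 8.96 and 10.40 in castrated animals and 10.39, 10.74 and 11 as the lowest, median and highest in intact animals. Castrated animals 1, 3 and 4 were below every intact animal, and animals 2 and 5 lay inside the intact range (log2 fold change -1.01, SE 0.33, adjusted p = 0.0275). Without castrated animal 1 the adjusted p was 0.166, and without castrated animal 4 it was 0.124. Dst, which links keratin filaments to hemidesmosomes, fell (log2 fold change -0.77, SE 0.27, adjusted p = 0.0388), a call lost in 17 settings. The basal markers Krt5, Krt14 and Trp63 did not pass. Krt5 was at 0 in 3 of 5 castrated animals with 0.00 to 4.85 as the range, against 0.00 to 7.58 in intact animals (adjusted p = 0.494). Trp63, the master factor of basal cells, was 3.25 ± 1.22 in castrated and 4 ± 1.28 in intact animals (SD, adjusted p = 0.774). Over the same list the median was 0.81 in DKO and 0.41 in DKO_EP, with no member called in either. Summed basal counts per animal were 5094 to 6898 in castrated and 6546 to 15910 in intact animals.

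**Figure D1:**
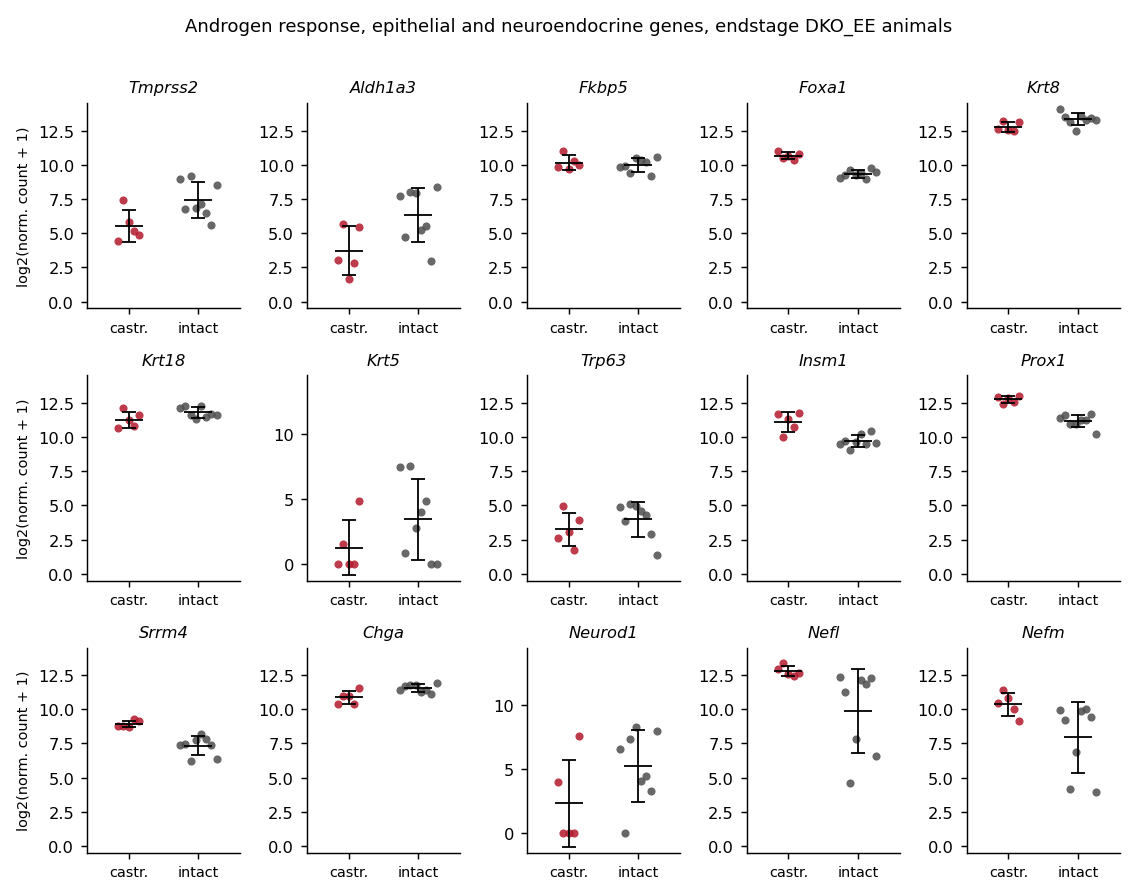
Points are animals (5 castrated, red; 8 intact, grey) and bars are mean ± SD; the vertical axis is log2(normalized count + 1). Foxa1, Prox1, Srrm4 and Nefl have all castrated animals above all intact ones, while Tmprss2, Krt5 and Neurod1 overlap.

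Neuroendocrine genes were at high levels in both groups, and which of them pass depends on the animals that set the spread. Of 45 neuroendocrine genes, none rose and 1 fell in the fit with all 11 groups, against 8.3% of all genes higher and 8.19% lower. The list median was 0.01. In the fit on the 13 DKO_EE endstage animals alone, 6 rose and 2 fell, against 8.28% of 16634 genes higher and 7.35% lower in that fit. Insm1, Srrm4, Prox1, Cacna1a and Unc13a were among the 6, and the 2 were Chga and Scg5, all named after their values were seen except Insm1 and Chga. Summed counts of the list were 50930 to 78920 per castrated animal and 45450 to 63910 per intact animal.

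Insm1, a zinc-finger factor of neuroendocrine differentiation, had 11.67, 9.99, 11.30, 10.73 and 11.76 in castrated animals and 9.05, 9.61 and 10.44 as the lowest, median and highest in intact animals. It differed by 1.38 (adjusted p = 0.442 with all groups, 0.00377 in DKO_EE alone). Prox1, a homeobox factor, had 12.89, 12.42, 12.87, 12.54 and 13 in castrated animals, all above the intact range of 10.22 to 11.70 (log2 fold change 1.58, adjusted p = 0.143 with all groups, 8.99e-05 in DKO_EE alone). Srrm4, a splicing factor for neuronal microexons, was 8.68 to 9.25 in castrated and 6.20 to 8.22 in intact animals (adjusted p = 0.179 with all groups, 0.00176 in DKO_EE alone). Foxa2, a relative of Foxa1 found in neuroendocrine prostate tumours, was 10.55 ± 0.48 in castrated and 10.33 ± 0.27 in intact animals (SD, adjusted p = 0.917).

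The secretory markers did not share that direction. Chga, which encodes chromogranin A, had 10.40, 10.95, 10.97, 10.39 and 11.56 in castrated animals and 11.10, 11.54 and 11.95 as the lowest, median and highest in intact animals. The difference was -0.69 (adjusted p = 0.7 with all groups, 0.0294 in DKO_EE alone), and with age as a covariate it was 0.05 (adjusted p = 0.982). Syp, a synaptic vesicle protein gene, was 9.46 ± 0.41 in castrated and 9.45 ± 0.18 in intact animals (SD, adjusted p = 1). Neurod1, a proneural factor, was the 1 gene of the list that fell with all groups in the fit. It was at 0 in 3 of 5 castrated animals and at 4.01 and 7.57 in the other 2, against 0.00, 5.50 and 8.25 as the lowest, median and highest in intact animals (log2 fold change -2.93, SE 1.05, adjusted p = 0.0479). That call was lost in 15 settings.

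The neurofilament list had no called gene among 17, yet the genes for the light and medium chains varied widely among intact animals. Nefl had 12.96, 13.34, 12.58, 12.45 and 12.66 in castrated animals, and 12.36, 11.24, 4.63, 7.79, 12.12, 11.85, 12.27 and 6.59 in the 8 intact animals. All castrated animals were above all intact ones, and 3 intact animals, numbers 3, 4 and 8, were under 8 (log2 fold change 2.94, SE 1.61, adjusted p = 0.248). Nefm, whose protein joins the same filaments, had 10.46, 11.38, 10.81, 10.05 and 9.13 in castrated and 9.94, 9.21, 4.16, 6.91, 9.89, 10.04, 9.41 and 3.95 in intact animals, with the same 3 intact animals lowest (log2 fold change 2.43, SE 1.39, adjusted p = 0.279). In DKO the difference ran the other way: Nefl was 0.00 to 3.84 in castrated and 9.52 to 12.35 in intact animals, a log2 fold change of -10.44 (SE 2.15, adjusted p = 0.000398). The difference between the 2 genotypes was 13.39 (SE 2.69, adjusted p = 0.0529) and did not pass. Ina, which encodes internexin, another neuronal filament protein, was 8.92 to 9.33 in castrated and 7.64 to 8.46 in intact animals (adjusted p = 0.483 with all groups, 0.000264 in DKO_EE alone).

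Of 11 subunit genes of Polycomb repressive complex 2, 1 rose and none fell, against 8.3% of all genes higher and 8.19% lower. The list median was 0.19. Aebp2, an accessory subunit that helps the complex bind nucleosomes, had 10.51, 11.04, 10.39, 10.34 and 10.74 in castrated animals and 9.56, 9.94 and 10.39 as the lowest, median and highest in intact animals (log2 fold change 0.67, SE 0.16, adjusted p = 0.00164). Aebp2 was not called with only the 3 DKOE-lettered intact animals (adjusted p = 0.0654), where 1 gene of this list fell and none rose. Of 19 subunit genes of Polycomb repressive complex 1, 5 rose and 1 fell, against 8.3% higher and 8.19% lower over all genes, and the list median was 0.30. Summed counts of the list were 10450 to 12130 in castrated animals, above the 7838 to 9562 in intact animals. Pcgf5, a subunit of variant forms of the complex, had 10.39, 10.20, 10.14, 9.98 and 10.33 in castrated animals and 7.54, 8.24 and 8.53 as the lowest, median and highest in intact animals, with no overlap (log2 fold change 2.02, SE 0.23, adjusted p = 4.4e-09). It also rose in DKO (1.62, adjusted p = 0.000148) and in DKO_EP (2.11, adjusted p = 7.08e-07). Cbx8, a chromodomain subunit that binds methylated histone H3, had 7.34, 7.08, 6.87, 7.16 and 7.05 in castrated animals and 5.56, 5.79 and 6.12 in intact animals, again with no overlap (log2 fold change 1.31, SE 0.17, adjusted p = 7.09e-08). Pcgf2, a subunit of the canonical complex, rose by 0.78 on the log2 scale (adjusted p = 0.000977). Pcgf3, close to Pcgf5, rose by 0.55 (adjusted p = 0.00151), and Rybp, which replaces chromodomain subunits in variant complexes, fell by 1.03 on the log2 scale (adjusted p = 0.00219). These 2 were named after their values were seen. The list held 8 called genes in DKO and 5 in DKO_EP, and 5 higher and 1 lower in DKO_EE with only the 3 DKOE-lettered intact animals.

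Of 76 measured developmental factor genes known as Polycomb targets, 7 rose and none fell, which is close to the 8.3% of all genes that rose. The list median was 0.00, with 37 positive and 35 negative. Of the 76, 12 were at 0 in all 5 castrated animals and 6 were at 0 in all 8 intact animals. These 2 counts rest on groups of unequal size, and the share of all genes at 0 was not counted. Besides Foxa1 the risen genes were Foxc1, Tbx1, Irx2, Tbx3, Irx5 and Nkx6-2. With only the 3 DKOE-lettered intact animals, 2 genes of the list rose. Summed counts of the list were 17530 to 25370 in castrated animals and 9454 to 14210 in intact animals, with no overlap. The sum is carried by its most abundant members, such as Sox1, a neural progenitor factor, with 12.87, 12.14, 12.36, 12.36 and 12.68 in castrated animals and 10.37, 10.88 and 11.36 as the lowest, median and highest in intact animals. Sox1 differed by 1.65 (adjusted p = 0.411 with all groups, 3.28e-06 in DKO_EE alone), and it was named after its values were seen. Promoters are shown for Foxa1, Foxc1 and Irx2, 3 of the genes that rose, with every CG dinucleotide in capitals. They are from RefSeq on GRCm38.p6, 250 bases before to 50 after the start: Foxa1 at chr12:57546062-57546361 on the minus strand, Foxc1 at chr13:31806396-31806695 and Irx2 at chr13:72628570-72628869, both on the plus strand.
Foxa1: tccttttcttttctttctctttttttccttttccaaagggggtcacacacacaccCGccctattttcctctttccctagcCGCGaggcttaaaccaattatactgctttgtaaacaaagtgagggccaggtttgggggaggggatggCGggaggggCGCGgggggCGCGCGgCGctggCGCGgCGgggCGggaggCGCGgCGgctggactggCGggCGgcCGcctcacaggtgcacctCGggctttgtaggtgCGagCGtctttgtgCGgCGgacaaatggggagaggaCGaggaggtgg
Foxc1: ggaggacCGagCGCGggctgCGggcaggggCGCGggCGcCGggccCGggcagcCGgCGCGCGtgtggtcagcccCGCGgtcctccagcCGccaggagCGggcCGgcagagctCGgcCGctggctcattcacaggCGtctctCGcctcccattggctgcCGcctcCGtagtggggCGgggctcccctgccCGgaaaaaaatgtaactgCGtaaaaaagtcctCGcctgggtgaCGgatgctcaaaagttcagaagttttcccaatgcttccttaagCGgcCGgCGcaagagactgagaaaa
Irx2: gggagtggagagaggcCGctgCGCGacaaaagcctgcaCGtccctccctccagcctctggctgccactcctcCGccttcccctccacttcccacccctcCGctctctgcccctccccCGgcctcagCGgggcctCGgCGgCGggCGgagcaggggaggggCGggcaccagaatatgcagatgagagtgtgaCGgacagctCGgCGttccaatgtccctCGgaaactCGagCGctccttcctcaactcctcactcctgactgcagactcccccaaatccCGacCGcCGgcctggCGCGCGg
The windows held 26, 32 and 25 CG dinucleotides. Of all 32851 promoters of this length, 16.9%, 9.52% and 18.4% held at least as many, and the median of all was 7. The 6 promoters available for 5 of the risen genes of the list held 16 to 32, with a median of 26. The median was 20.5 in 58 promoters of 47 genes of the developmental list, 18 in 16428 promoters of the genes in the deposited table, 24 in 1268 promoters of the kept genes that rose and 18 in 1015 promoters of the kept genes that fell.

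Foxc1, a forkhead factor of mesenchyme and basal-like epithelium, had 9.29, 9.18, 8.71, 8.83 and 8.86 in castrated animals and 7.03, 7.89 and 8.27 as the lowest, median and highest in intact animals (log2 fold change 1.18, SE 0.20, adjusted p = 1.52e-05). Tbx1, a T-box factor of pharyngeal development, had 7.71, 6.21, 7.59, 8.26 and 7.40 in castrated and 4.74, 5.53 and 5.99 in intact animals (log2 fold change 1.92, SE 0.51, adjusted p = 0.0052). Irx2, an Iroquois homeobox factor, had 10.18, 8.66, 9.41, 10.15 and 9.17 in castrated and 7.26, 7.76 and 8.54 in intact animals (log2 fold change 1.58, SE 0.45, adjusted p = 0.0107). In all 3 genes every castrated animal was above every intact one. The calls of Tbx1 and Irx2 were lost with only the 3 DKOE-lettered intact animals (adjusted p = 0.117 and 0.23). Irx2 differed by -0.33 in DKO and 0.07 in DKO_EP, neither of which passed, and the difference from DKO was 1.90 (SE 0.75, adjusted p = 0.417). Irx5, another Iroquois homeobox gene, had 2.59, 5.25, 7.33, 5.62 and 7.75 in castrated animals, with animal 1 inside the intact range of 0.00 to 5.04 (log2 fold change 3.02, SE 0.93, adjusted p = 0.0183). The Irx5 call was lost without castrated animal 3 (adjusted p = 0.0739) and without castrated animal 5 (adjusted p = 0.086). Tbx3 rose by 1.12 (SE 0.33, adjusted p = 0.0151) and Nkx6-2, at low levels of 2 to 3.81 in castrated and 0.00 to 2.91 in intact animals, by 2.03 (SE 0.67, adjusted p = 0.0303). Cdkn2a, the tumour suppressor locus that Polycomb silences in dividing cells, was 5.09 ± 0.86 in castrated and 4.72 ± 0.94 in intact animals (SD, adjusted p = 0.859). Of 35 Hox genes, 1 fell and none rose, against 8.19% of all genes lower and 8.3% higher. It was Hoxd11, listed at 0 in every castrated animal and at 1.81 to 6.49 in intact animals (adjusted p = 0.000418).

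**Figure D2:**
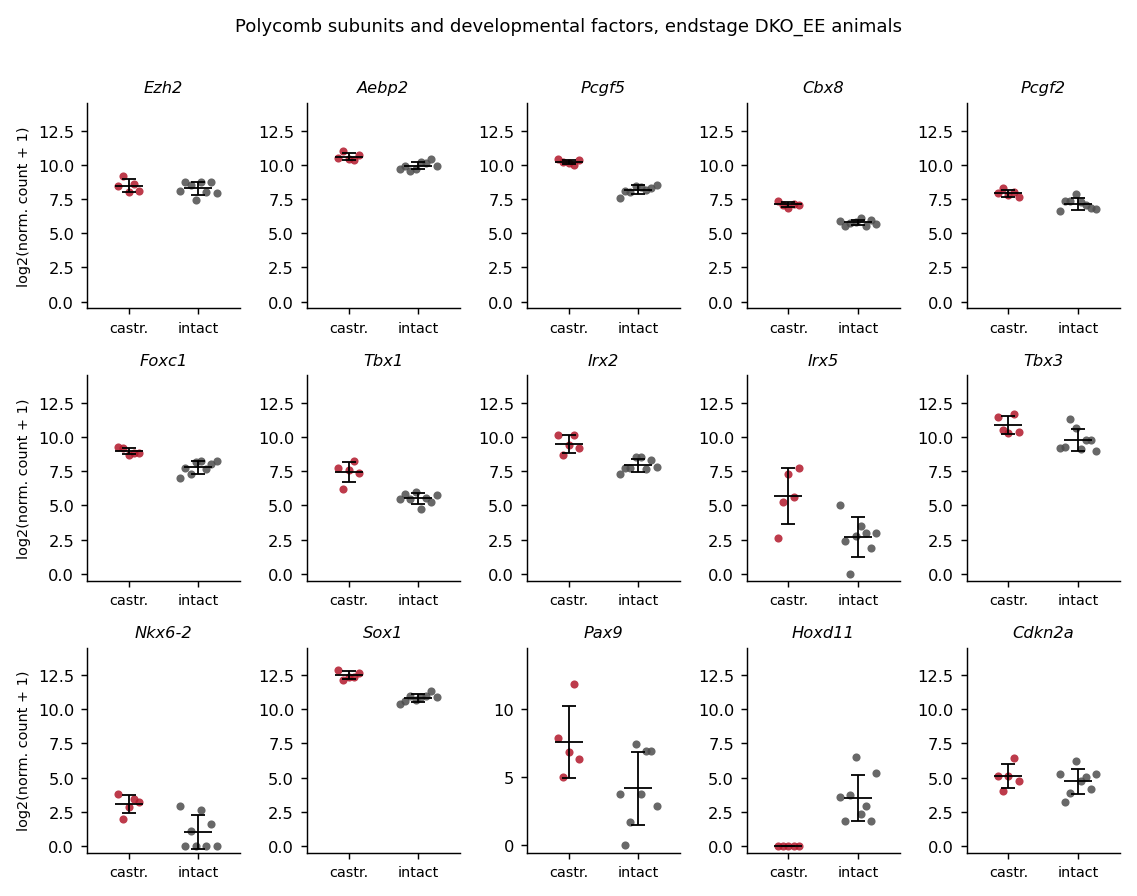
Points are animals (5 castrated, red; 8 intact, grey) and bars are mean ± SD; the vertical axis is log2(normalized count + 1). Pcgf5, Cbx8, Foxc1, Tbx1 and Irx2 have no overlap between the groups, and Ezh2 overlaps.

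Among 23 lineage plasticity factors, 3 rose and none fell, against 8.3% of all genes higher and 8.19% lower. The 3 were Foxa1, Sox4 and Klf5. Sox4, a factor of embryonic and epithelial progenitors, had 11.01, 10.35, 10.04, 11.03 and 9.57 in castrated animals and 7.80, 8.41 and 10.31 as the lowest, median and highest in intact animals. The group ranges met only through intact animal 3 (log2 fold change 1.83, SE 0.29, adjusted p = 3.3e-06). Klf5, a factor of proliferating epithelium, had 10.81, 11.47, 10.65, 10.51 and 10.69 in castrated animals and 8.13, 8.90 and 10.17 in intact animals, with no overlap (log2 fold change 1.94, SE 0.44, adjusted p = 0.00108). Both also rose in DKO and in DKO_EP, Sox4 by 1.31 and 1.63, and Klf5 by 3.39 and 3.62. Sox2, which is linked to lineage change in prostate tumours, was 9.74 ± 0.63 in castrated and 9.19 ± 0.52 in intact animals (SD, adjusted p = 0.513). Onecut2, another such factor, was 1.83 ± 0.63 in castrated and 3.75 ± 1.94 in intact animals (SD, adjusted p = 0.453).

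The largest differences are given for called kept genes that have a gene name and lie outside the lowest 25% of genes by mean level over the 13 animals. The largest rise among them was in Mia2, an endoplasmic reticulum export factor gene. It had 8.65, 8.74, 8.75, 8.68 and 8.79 in castrated animals and 1.28, 2.94 and 5.08 as the lowest, median and highest in intact animals (log2 fold change 5.78, SE 0.48, adjusted p = 5.32e-13), and it rose by 5.75 in DKO and 7.08 in DKO_EP. Eif4ebp2, which encodes a repressor of cap-dependent translation, had 11.21, 11.42, 11.27, 11.55 and 11.04 in castrated and 7.69, 8.35 and 8.67 in intact animals (log2 fold change 3.05, SE 0.16, adjusted p = 2.47e-19), with 3.47 in DKO and 2.95 in DKO_EP. Mia2, Scand1 and Eif4ebp2 rose in all 3 genotypes. Cdk6, a kinase of the G1 phase, had 10.07, 11.29, 11.18, 12.41 and 10.59 in castrated animals, all above the intact range of 5.75 to 9.50 (log2 fold change 3.39, SE 0.64, adjusted p = 7.86e-05). Its differences were 0.54 in DKO (adjusted p = 0.75) and 1.79 in DKO_EP (adjusted p = 0.196). Paqr9, a membrane receptor family gene, had 9.72, 8.66, 11.33, 12.40 and 10.35 in castrated animals, all above the intact range of 5.11 to 7.69 (log2 fold change 4.05, SE 0.90, adjusted p = 0.000748), against -0.23 in DKO and 0.67 in DKO_EP. The test of the difference from DKO gave 4.28 for Paqr9 (SE 1.5, adjusted p = 0.355) and 2.84 for Cdk6 (SE 1.06, adjusted p = 0.396), so neither was called.

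The other 8 of the 12 largest rises include Rims4, Rims3, Prrt1 and Epha5. Rims4 and Rims3, which encode short proteins of the vesicle release site, rose by 3.54 (adjusted p = 0.000142) and 3.11 (adjusted p = 0.0101). The Rims3 call was lost with only the 3 DKOE-lettered intact animals (adjusted p = 0.124). Prrt1, a protein of glutamate receptor complexes, rose by 5.07 (adjusted p = 3.08e-07), and Epha5, an ephrin receptor of axons, by 3.19 (adjusted p = 0.0432), a call lost in 12 settings. Gramd2, Scand1, Irx5 and Fads6 complete the 12, at 3.47, 3.31, 3.02 and 3.01. On the list of 49 ion channel and synapse genes, however, 1 rose and 2 fell, against 8.3% of all genes higher and 8.19% lower, with a median of 0.22. Gabrb1, a GABA receptor subunit, rose by 2.84 (adjusted p = 0.0264, lost in 8 settings), while Kcnn3, a calcium-activated potassium channel, fell by 2.40 (adjusted p = 0.00335) and the GABA receptor subunit Gabra3 fell by 1.51 on the log2 scale (adjusted p = 0.0416, lost in 16). In the fit on DKO_EE alone 6 genes of this list rose and 1 fell, against 8.28% of all genes higher and 7.35% lower in that fit.

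Cfb, Cd163 and Lyve1 were among the 12 largest falls under the same filter on names and levels. Cfb, complement factor B, had 2.33, 3.32, 3.87, 4.43 and 3.23 in castrated animals and 4.17, 8.10 and 9.81 as the lowest, median and highest in intact animals, where animal 7 was the low one (log2 fold change -4.47, SE 0.70, adjusted p = 3.64e-06). Cd163, a scavenger receptor of tissue macrophages, had 0.00, 3.46, 0.00, 1.14 and 3.60 in castrated and 0.73, 6.41 and 7.97 in intact animals (log2 fold change -4.14, SE 1.10, adjusted p = 0.00555), and Lyve1, a hyaluronan receptor of lymphatic endothelium and some macrophages, fell by 3.39 on the log2 scale (adjusted p = 0.0096). Without the 5 ET-lettered intact animals the adjusted p was 0.294 for Cd163 and 0.186 for Lyve1. Adgra2, a receptor of brain endothelium, had 5.33, 4.09, 6.08, 5.99 and 4.63 in castrated animals, all below the intact range of 8.04 to 8.95 (log2 fold change -3.43, SE 0.42, adjusted p = 1.61e-08). The other falls were Lars2 at -8.59, the small RNAs Snora78 and Vaultrc5 at -4.13 and -3.80, Mageb16 at -4.81, Pwwp2b at -4.14, Rdh9 at -3.53, Eno1b at -9.03 and Dynlt1b at -3.64. Reads from Eno1b and Dynlt1b can be split with near-identical copies, so these values are uncertain. Eno1 itself was among the genes set aside. Summed over Eno1 and Eno1b, normalized counts were 5777 to 8850 in castrated animals, above the 1105 to 2960 in intact ones. Summed over the Dynlt1 copies, however, they were 386 to 520 in castrated and 1090 to 4406 in intact animals.

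**Figure D3:**
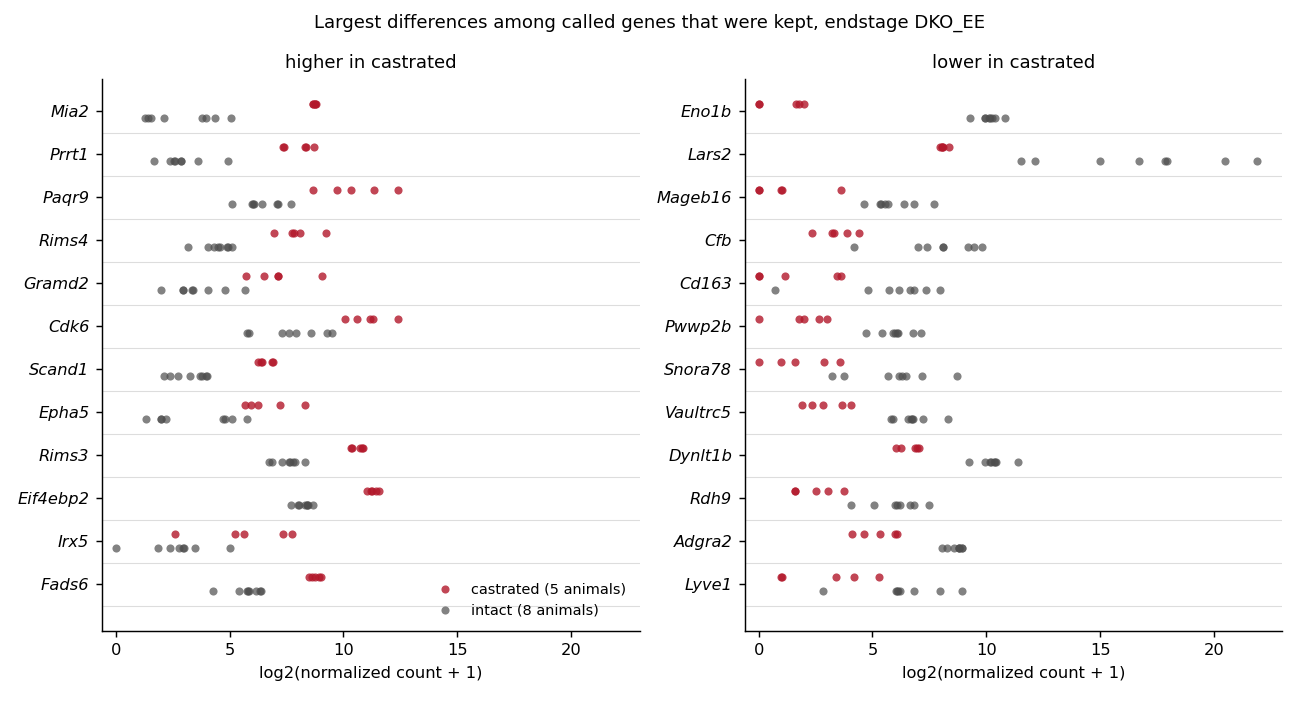
The 12 largest rises and 12 largest falls among called kept genes, without unnamed gene models and the lowest 25% of genes by mean level; each point is an animal (castrated red, intact grey) and the horizontal axis is log2(normalized count + 1). Castrated and intact animals do not overlap for Mia2, Eif4ebp2, Scand1, Eno1b, Adgra2 and Dynlt1b.

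Immune cell genes were mostly lower in sign, with few calls. Of 19 macrophage genes 2 fell and none rose, with a median of -0.41, and this share and those of the neutrophil and of the T and NK cell lists are near the 8.19% of all genes that fell. Beside Cd163 this was Itgam, the CD11b integrin of myeloid cells, which had 3.92, 5.62, 4.23, 5.17 and 1.92 in castrated animals and 6.13, 7.38 and 8 as the lowest, median and highest in intact animals, with no overlap (log2 fold change -3.14, SE 0.68, adjusted p = 0.000585). The Itgam call was lost with only the 3 DKOE-lettered intact animals (adjusted p = 0.0521). The summed macrophage counts overlapped widely, at 5718 to 14360 in castrated and 4217 to 18680 in intact animals, and the part of macrophage content in these falls was not tested. Of 13 neutrophil genes 1 fell, Cxcr2, the chemokine receptor of neutrophils, with 0.00, 2.32, 1.03, 3.41 and 1.92 in castrated animals against 4.22 to 5.24 in intact animals (log2 fold change -3.11, SE 1.02, adjusted p = 0.0274), a call lost in 5 settings, among them without castrated animal 1 (adjusted p = 0.104) and without castrated animal 3 (adjusted p = 0.0698). Of 23 T and NK cell genes 2 fell, Cd28 (log2 fold change -1.57, adjusted p = 0.0223, lost in 8 settings) and Nkg7 (log2 fold change -1.54, adjusted p = 0.0472, lost in 18), and none of 11 B and plasma cell genes was called. All 12 class II antigen presentation genes were negative, with a median of -0.98, and the only call was Ifi30, which was set aside. Of 18 class I genes 3 were called higher and none lower, against 8.3% of all genes higher and 8.19% lower. The 3 were H2-Q6, H2-Q7 and H2-T22, and all were set aside as well. The class I median was -0.08, with 8 genes positive and 10 negative. H2-Q6 and H2-Q7 are near-identical, and their summed normalized counts were 368 to 4844 in castrated and 0 to 0.9 in intact animals. Neither the 35 interferon response genes nor the 18 endothelial genes held a called gene.

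Stromal and other tissue markers were mixed, beside 8.3% of all genes higher and 8.19% lower. Dcn, the matrix proteoglycan decorin, had 5.99, 6.79, 6.60, 7.61 and 7.37 in castrated animals and 4.52, 9.28 and 12.94 in intact animals (log2 fold change -2.38, SE 0.83, adjusted p = 0.0409), the 1 call among 24 fibroblast genes and one that was lost in 16 settings. The summed fibroblast counts were 13520 to 29200 in castrated and 6111 to 77740 in intact animals. In the smooth muscle list of 17, 1 gene rose and 1 fell, with a median of -0.77, 5 genes positive and 12 negative. Rgs5, a pericyte marker, rose by 1.31 (adjusted p = 0.00819). The Rgs5 call was lost without castrated animal 3 (adjusted p = 0.0677) and with only the 3 DKOE-lettered intact animals (adjusted p = 0.32). Egr2, a myelination factor that is also an immediate early gene, had 0.00, 1.58, 1.03, 1.14 and 0.00 in castrated animals and 3.61, 5.10 and 6.18 in intact animals, with no overlap (log2 fold change -4.18, SE 0.65, adjusted p = 2.79e-06). Alox5, the 1 tuft cell gene called, fell by 2.38 on the log2 scale (adjusted p = 0.0216, lost in 8 settings), and Myh7, the 1 skeletal muscle gene called, also fell (log2 fold change -1.54, adjusted p = 0.0436, lost in 16). No adipocyte gene was called.

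Red cell genes went both ways. Hba-a1 and Hbb-bt, globin genes listed at 0 in every intact animal, had 2.05 to 7.02 and 1.03 to 5.69 in castrated animals and were set aside. The kept globin gene Hbb-bs had 7.76, 7.75, 3.97, 9.23 and 8.52 in castrated animals and 0.00, 0.73 and 5.92 as the lowest, median and highest in intact animals, with intact animal 4 the high one (log2 fold change 6.27, SE 0.84, adjusted p = 1.38e-07). Alas2, the first enzyme of haem synthesis in red cell precursors, fell (log2 fold change -2.26, SE 0.71, adjusted p = 0.0204; adjusted p = 0.159 without castrated animal 3). The part of blood in the samples was not tested.

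Seminal vesicle secretory genes, which mark tissue that can be dissected with the prostate, were near absent from castrated animals. Of the 13, 10 were at 0 in every castrated animal, and none was at 0 in every intact one. The share of all genes at 0 in each group was not counted, and the intact group has more animals. Svs2 was listed at 0 in all 5 castrated animals and at 0.00, 5.25 and 7.54 as the lowest, median and highest in intact animals. Svs4 and Svs5 were likewise listed at 0 in castrated animals, and at 1.81 to 5.63 and 0.88 to 6.18 in intact animals. Of all kept genes, 3.05% had every castrated animal below every intact one. With all groups in the fit none was called (adjusted p = 0.059 for Svs2, 0.103 for Svs4 and 0.0861 for Svs5). In DKO_EE alone these 3 of the 13 were called (adjusted p = 0.00357, 0.00156 and 0.00242), against 7.35% of all genes lower in that fit. At 12 weeks Svs2 was 9.27 ± 6.48 (SD, n = 4). These 3 were named after their values were seen. These genes depend on androgen in the seminal vesicle, and the share of that tissue in each sample was not tested.

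Other growth and metabolism lists held few calls, beside 8.3% of all genes higher and 8.19% lower with all groups in the fit. No gene of 30 in the proliferation list passed with all groups in the fit, and Mki67 was 13.99 ± 0.20 in castrated and 14.41 ± 0.28 in intact animals (SD, adjusted p = 0.447). In DKO_EE alone 1 proliferation gene rose and 4 fell, against 8.28% of all genes higher and 7.35% lower in that fit. Of 49 Wnt pathway genes 3 rose and 1 fell, against the same 8.3% and 8.19%, with a list median of -0.10. Lrp5, a co-receptor, rose by 0.70 (adjusted p = 0.0128, lost in 3 settings). Lgr6, an R-spondin receptor, rose by 2.22 (adjusted p = 0.0173, lost in 2 settings). The ligand Wnt5a rose by 1.80 (adjusted p = 0.0235, lost in 7 settings), while the receptor gene Fzd6 fell and was set aside. Of 22 cholesterol synthesis genes, Stard4, a sterol carrier, rose by 1.35 (adjusted p = 0.00546, lost in 1 setting). Srebf2, the factor that induces the pathway, rose by 0.59 (adjusted p = 0.0463). The enzyme genes Idi1 and Fdps fell and were set aside. Lss fell by 0.66 on the log2 scale (adjusted p = 0.0162, lost in 3 settings). Of 23 hypoxia and glycolysis genes 1 rose and 1 fell. Pgk1, a glycolytic enzyme, fell by 1.16 (SE 0.25, adjusted p = 0.000584), with all castrated animals below all intact ones. Eno1, another glycolytic enzyme, rose by 3.29 and was set aside. Dnaja1, a heat shock chaperone, fell (log2 fold change -0.71, adjusted p = 0.00706, lost in 2 settings). Hspa8, another chaperone, also fell (log2 fold change -0.70, adjusted p = 0.0324, lost in 12 settings). Of 22 p53 target genes, Zmat3 rose by 0.91 (adjusted p = 0.00296) and Bax fell by 0.54 on the log2 scale (adjusted p = 0.00613). Both calls were lost with only the 3 DKOE-lettered intact animals (adjusted p = 0.146 and 0.0654). Jun rose by 0.85 (adjusted p = 0.0309, lost in 9 settings) and Jund, its relative, was set aside at 0.00 to 1.26 in castrated and 7.04 to 8.83 in intact animals. Tcf4 was the 1 called gene among 19 epithelial-mesenchymal transition factors, at 0.69 (adjusted p = 0.0107, lost in 1 setting). Cd46, the 1 called among 16 prostate surface targets, was set aside. The Notch, squamous, and steroid synthesis and receptor lists held no called gene.

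**Figure D4:**
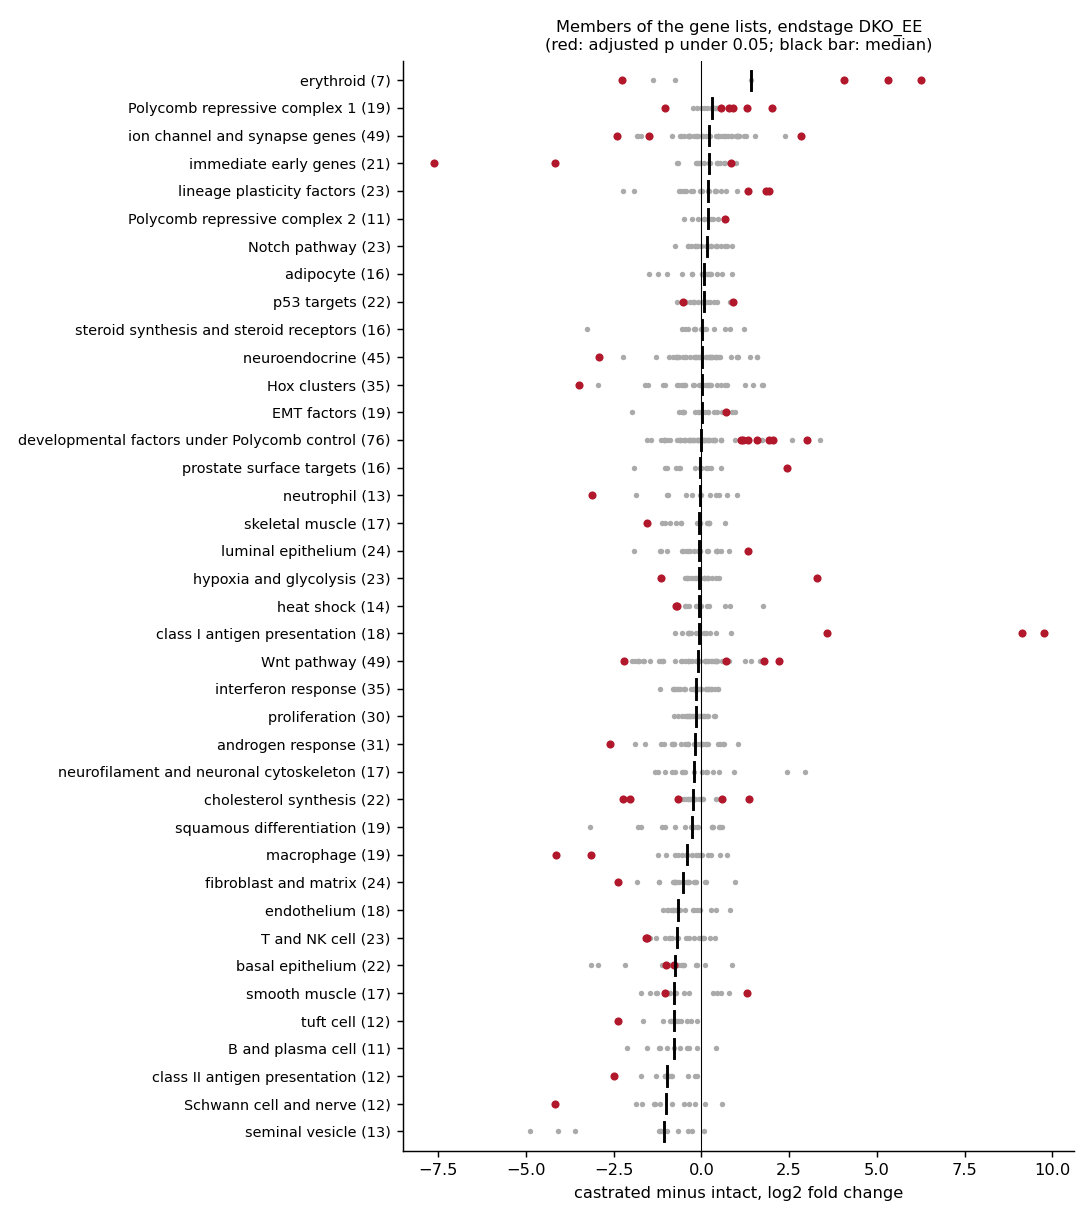
Each row is a gene list with its number of measured genes in brackets, each dot a gene at its log2 fold change, castrated minus intact; red dots have adjusted p under 0.05 and black bars are medians. The basal list has a median of -0.75 and the developmental list one of 0.00.

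The tumour suppressor genes Rb1 and Trp53 did not pass. Rb1 was 8.99 ± 0.15 in castrated and 8.51 ± 0.61 in intact animals (SD, adjusted p = 0.131), and Trp53 was 8.22 ± 0.19 in castrated and 8.01 ± 0.26 in intact animals (SD, adjusted p = 0.595). Rb1 passed, as a rise, in 4 alternative settings: without intact animal 4 (adjusted p = 0.0202), with weights per animal (0.013), with age as a covariate (0.0237) and without libraries over 10% Lars2 (0.00808). The labels do not say whether either is deleted in DKO.

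The genes set aside included the largest differences of all. Mrgpra6 was listed at 0 in every castrated animal and at 13.26 to 14.35 in intact animals, and Atp5o and Ado were likewise listed at 0 in castrated animals, against 9.32 to 10.57 and 8.77 to 10.04 in intact animals. Scarna2, a small Cajal body RNA, had 9.77 to 10.34 in castrated and 0.00 to 1.99 in intact animals. The ribosomal protein genes Rps27 and Rpl26 had 9.62 to 9.96 and 9.84 to 10.49 in castrated animals, against 1.81 to 4.63 and 1.99 to 4.61 in intact animals. Of the 396 genes, 32 were at 0 in all 22 castrated libraries and 10 were at 0 in all 32 intact ones. Pseudogenes were 2 of the genes above and 24 of those below in castrated libraries.

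The castration difference in DKO_EE was finally set against that in DKO and in DKO_EP, gene by gene. Against DKO, 2 genes passed, and 1638 had an unadjusted p under 0.05. Hist1h4m, a histone H4 gene, was 7.14 ± 0.61 in castrated and 7.12 ± 0.76 in intact DKO_EE animals, and 1.73 ± 3.46 in castrated and 7.91 ± 0.32 in intact DKO animals (SD; interaction 6.20, SE 1.03, adjusted p = 0.00803). The SD of Hist1h4m among castrated DKO animals was larger than its mean, so these animals differed widely from each other. Histone H4 genes are near-identical, so the reads of Hist1h4m are uncertain. Cfap69, a ciliary and sperm flagellum gene, was 5.67 ± 0.67 in castrated and 4.78 ± 0.47 in intact DKO_EE animals, and 3.12 ± 1.18 and 5.50 ± 0.15 in castrated and intact DKO animals (SD; interaction 3.28, SE 0.62, adjusted p = 0.0445). Against DKO_EP, 1 gene passed and 773 had an unadjusted p under 0.05. This was the gene model Gm4737, at 0.91 ± 0.90 in castrated and 7.39 ± 0.47 in intact DKO_EE animals, and 6.08 ± 0.28 and 7.08 ± 0.24 in castrated and intact DKO_EP animals (SD; interaction -5.48, SE 0.84, adjusted p = 0.00159). With the 6 endstage groups alone in the fit, 1 gene passed against DKO and 0 against DKO_EP. Ano10, a membrane scramblase family gene, fell by 0.65 in DKO_EE (adjusted p = 0.000219) and differed by 0.44 in DKO, an interaction of -1.10 (SE 0.22, adjusted p = 0.0529) that did not pass. Its fall in DKO_EE was not called with only the DKOE-lettered intact animals (adjusted p = 0.0688).

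**Figure D5:**
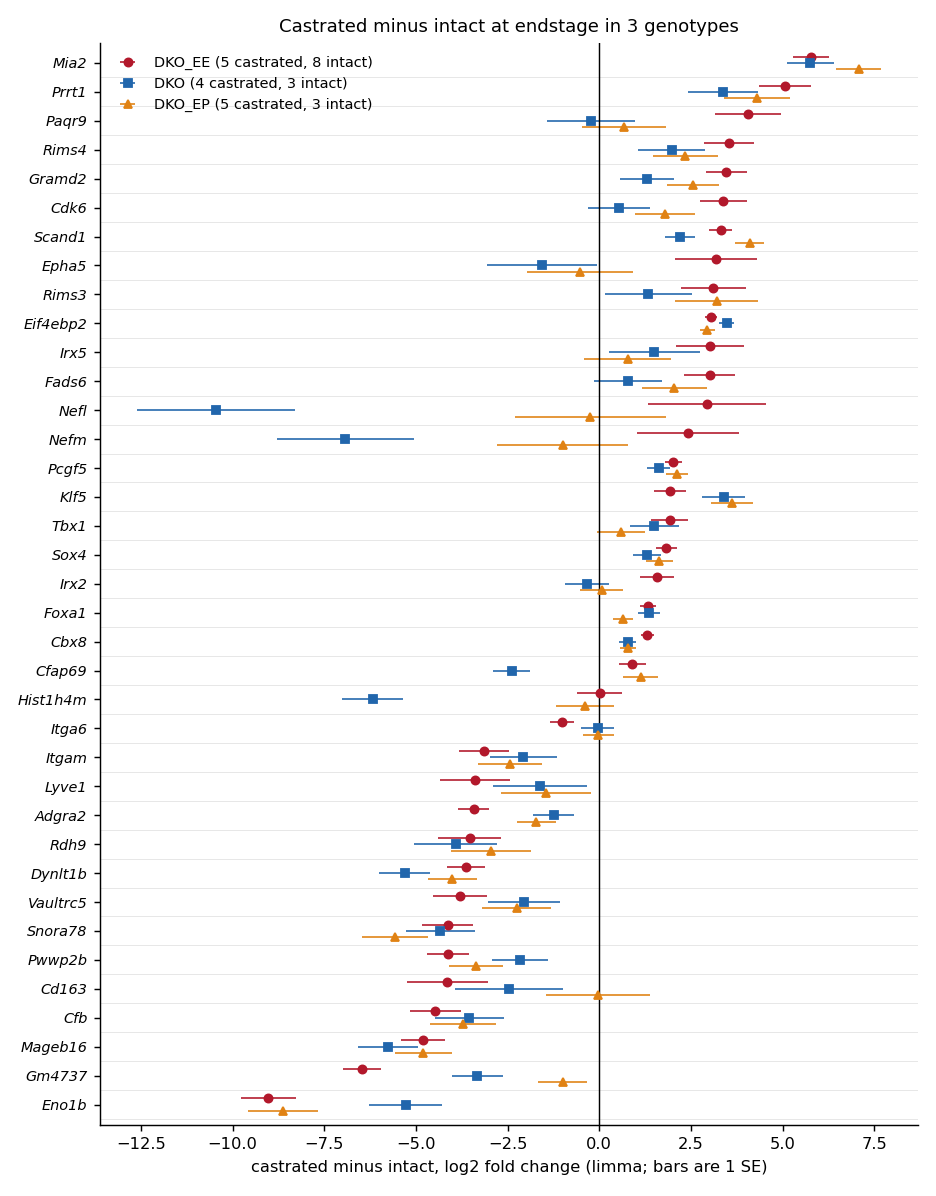
Log2 fold change, castrated minus intact at endstage, with bars of 1 SE, for named genes in DKO_EE (red circles, 5 castrated and 8 intact animals), DKO (blue squares, 4 and 3) and DKO_EP (orange triangles, 5 and 3). Pcgf5, Sox4, Klf5 and Mia2 are positive in all 3 genotypes, while Nefl is 2.94 in DKO_EE and -10.44 in DKO.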

How the data were processed

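RNA of endstage prostate tumours from 5 castrated and 8 intact DKO_EE mice was analysed with the other groups of the series, 54 libraries of 48 animals in all. Per the labels, the miRNeasy Mini Kit gave total RNA and the RNA HyperPrep Kit with RiboErase gave libraries. The tools listed per the submitters' processing notes are DESeq2, limma, RSEM, STAR and FastQC, and the builds are mm10 and GRCm38, with no roles or versions. The deposited table holds 16772 genes in the unit log2, taken as log2 of a normalized count plus 1. With the logarithm and the 1 removed, 100% of the values were within 0.05 of a whole multiple of 1 step per library, so reads were recovered as depth. Of 56 columns, 2 matched no sample and were not used. The SKO model was not analysed here.

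Libraries with the same identifier, genotype and age were averaged as 1 animal. Group differences came from limma (version 3.58.1, R 4.3.3; lmFit, contrasts.fit, eBayes with trend), with all 11 groups in 1 fit. Genes without overlap between the 22 castrated and 32 intact libraries were set aside after the fit. On simulated data over 16772 genes, with log2 changes of 1, 2, 3 and 4 put into the DKO_EE comparison, 60%, 86%, 96% and 100% were recovered, with 12 false calls among 183. Gene positions are from GENCODE release M21 on GRCm38 and promoters from RefSeq on GRCm38.p6. Python 3.11.15 with scipy 1.17.1, numpy 2.4.6, pandas 2.3.3 and matplotlib 3.10.9 made permutation tests and figures.

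The members, the 41 gene lists and the tests were chosen with earlier results of these data known. Genes were named by a rule: the 12 largest called kept differences in each direction, leaving out unnamed gene models, receptor segments, pseudogenes and the lowest 25% of genes by level; up to 4 called genes of each list; 32 fixed genes; the 5 called genes with the smallest adjusted p in each genotype interaction; and the 6 largest set-aside genes in each direction. Some genes that the rule names are not reported here. Alternatives changed the groups in the fit, the filter, the offset, the normalization, weights, pieces, age, libraries with over 10% Lars2, identifier letters, and each animal in turn, and ran limma-voom on recovered reads.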

Additional observations from a re-analysis of the deposited data

Results flagged for a closer look

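In 126 genes named by the rule, the 5 castrated and the 8 intact animals were each searched for a value far from the rest, by the gap to the nearest animal as a share of the group's range. Of the 252 groups searched, 26 had such a value, 11 among castrated and 15 among intact animals. For normally distributed values chance gives about 1 in 20 groups. That rate does not apply where all other animals of a group had no reads, since any read is then flagged. Whether 26 is more than chance gives was therefore not decided. Intact animal 4, the 28-week animal with the lowest depth and the highest share of Lars2 reads, held 9 of the 15 such values among intact animals. Values below are log2 levels, with the nearest other animal of the group after "next to".

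Among intact animals, animal 4 was highest for Rgs5 (10.02 next to 8.7), Hbb-bs (5.92 next to 1.09), Alas2 (10.6 next to 7.01), Scarna2 (1.99 next to 0.79) and Rps27 (4.63 next to 3.1). It was lowest for Lss (7.62 next to 8.31), Akr1b3 (0.0 next to 1.42), Rpl26 (1.99 next to 3.46) and Atp5o (9.32 next to 10.03). Intact animal 3 was lowest for Fads6 (4.25 next to 5.41) and highest for Sox4 (10.32 next to 8.85) and Kcnn3 (10.82 next to 9.39). Intact animal 7 was lowest for Cd163 (0.73 next to 4.82), animal 8 highest for H2-Q7 (0.47 next to 0.0), and animal 1 lowest for Cfap69 (3.74 next to 4.59).

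Among castrated animals, most such values were a single animal with a few reads beside animals at 0. These were animal 4 for Myh7 (2.21) and Zfp488 (1.14), animal 5 for Jund (1.26) and Hoxb13 (1.26), animal 3 for Hist1h2ao (1.03) and Zfp91 (1.03), and animal 2 for Lipo1 (1.0). Castrated animal 5 was also highest for Mageb16 (3.6 next to 1.03) and animal 4 for Rps27 (9.96 next to 9.7). Castrated animal 3, the 59-week one, was lowest for Hbb-bs (3.97 next to 7.75), and animal 2 was lowest for Foxa2 (9.73 next to 10.61).

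The castration difference itself differed between genotypes for 3 genes. The interaction was 6.2 for Hist1h4m and 3.28 for Cfap69 in DKO_EE against DKO, and -5.48 for Gm4737 in DKO_EE against DKO_EP.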

How the results depend on the processing

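Of the 99 named genes that were called, 60 kept direction and call in all alternatives that could be run for them, and 39 lost the call in at least 1 without a change of direction. Of the 27 named genes that were not called, 7 passed in at least 1 alternative. With only the intact animals lettered DKOE 35 lost it, without libraries over 10% Lars2 14, with age as a covariate 12, and with limma-voom on recovered reads 11. The counts of kept genes were 1922 higher and 1753 lower with array weights, and 647 and 508 with only the intact animals lettered DKOE, where the smaller intact group is part of the change. Leaving out each animal in turn gave 1017 to 1303 higher and 917 to 1203 lower. Alternatives added after seeing the data gave 1392 and 1374 with no gene set aside, and 1208 and 1045 with genes set aside from the other genotypes only (516 genes). Genes that differed against DKO numbered 1 with the 6 endstage groups, 4 without the lowest 25% of genes, 1 with an offset of 8, and 0 to 5 leaving out each animal. Against DKO_EP there were 0 with the 6 endstage groups and 1 in the other settings run. The age difference was 6.5 to 12.5 weeks leaving out each castrated animal.

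Among the named genes, signs changed only in those without a call, and the cause was not tested. With only the intact animals lettered DKOE the log2 fold changes were -0.0129 for Ezh1, -0.0475 for Rb1, -0.0153 for Syp, 0.36 for Krt5, 1.45 for Krt14, 0.18 for Trp63, -0.13 for Nr3c1, -0.11 for Cdkn2a and -0.32 for Hist1h4m. With age as a covariate Chga was 0.0512. With quantile normalization Syp was -0.0436 and Nr3c1 -0.0182. Syp was -0.0638 without libraries over 10% Lars2 and -0.0137 with limma-voom. Hist1h4m was -0.18 with array weights, -0.0561 with all libraries and the correlation of pieces (0.388) and -0.13 with limma-voom. Leaving out each animal gave -0.0031 to 0.134 for Ezh1, -0.0424 to 0.294 for Fkbp5, -0.134 to 0.124 for Syp, -0.0799 to 0.0919 for Nr3c1 and -0.2155 to 0.1996 for Hist1h4m.

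The planned edgeR and DESeq2 tests were not run; limma-voom was the test run on the recovered reads. No paired analysis was possible because replicate numbers follow accession order and pair no animals. Genes with few reads, such as Nkx6-2 or Cxcr2 in castrated animals, are limited by depth.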
